A study of Mus musculus with 4 samples.

Results

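The genes that make cholesterol and fatty acids were read in newborn mouse ureters, set against whole newborn mice. The set held 33 genes, 17 of sterol synthesis, 11 of fatty acid synthesis, desaturation and elongation, and 5 of the control by SREBP. Members were taken by name, with every probe set annotated to exactly 1 symbol, that symbol being in the set. A probe set is a group of short array probes that reads a transcript. The rule found 77 probe sets for all 33 genes, of 34958 probe sets and 18194 genes with 1 symbol on the arrays. After the dimmest probe sets were left out, 62 member probe sets remained, at least 1 for each of the 33 genes, and 15 did not enter the tests. A gene was read at its brightest tested probe set, and the others are given where they differ.

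Ureters freed of kidney and bladder gave 3 unpooled samples, from male FVB/N mice with the SMGA/EGFP transgene. They are set against 1 pool of whole FVB/N newborns of both sexes, for which no transgene is listed. All 4 came from postnatal day 1 (Theiler stage 27), and all RNA was amplified in 2 rounds before it was labelled and put on Affymetrix MOE430 arrays. Tissue, transgene, sex and pooling therefore differ together between the groups and cannot be told apart. The labels do not say that the ureters came from separate animals. The p-values rest only on the spread among these 3 samples, at the probe set itself and at others of similar intensity. That spread may be technical. The whole newborn is a mixture of organs, so a difference is one from the body's average, and fewer cells of a type and less RNA per cell cannot be told apart.

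Cells build cholesterol from acetyl-CoA through mevalonate, squalene and lanosterol, and build saturated fatty acids from the same starting unit through malonyl-CoA. The transcription factors SREBP-1 and SREBP-2 switch these genes on. They are held in the endoplasmic reticulum by Insig proteins through the escort protein SCAP, and released when sterols run low. Urothelium, the lining of the ureter, carries apical plaques of uroplakin proteins in a membrane rich in cholesterol and sphingolipids. Liver, fat, skin glands and myelinating cells are known for making large amounts of lipid.

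Intensities below are quantile-normalized, in array units, and are compared only within a probe set or as a sum over the same probe sets. Differences are log2 ureter minus reference, taken on log2(intensity + 12.23), with the standard error (SE) of limma's fit, and each adjusted p comes from limma, adjusted by Benjamini-Hochberg across the 27022 probe sets that entered the test. Of those, 1667 passed 0.05, 725 higher and 942 lower in the ureters. Calls were higher in 43.5% of cases, in 33.5% with the scaling as deposited, in 29.8% with no intensity trend and in 15.1% without ureter replicate 3. Correlations of log2 values over these probe sets were 0.9049 to 0.9372 between ureter arrays and 0.7421 to 0.7693 between a ureter and the reference, as a description, since all share the probe sets. The tissue's label was checked against its markers: 7 of 9 urothelial genes and 7 of 8 smooth muscle and mesenchymal genes were called higher in the ureters, among them Upk1b (50.1-fold) and Myh11 (8.84-fold). Leaving out ureter replicate 3 reduced the calls over all probe sets to 317, 48 higher and 269 lower.

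With the scaling used here, the measured difference between ureter and whole body was small for most sterol and fatty acid synthesis genes. Of the 33 genes, 1 passed as lower, the desaturase gene Scd1, 32 did not pass and 0 passed as higher by limma. Among all genes tested, 7.71% passed, 4.77% as lower and 2.94% as higher, so the share among the members (1 of 33) was not above that of the arrays. At an unadjusted p under 0.05, 1 of 33 members was higher and 5 were lower. Of all 13721 genes tested, 1895 were higher and 1713 lower at that threshold. Differences stayed under 1 log2 unit, that is under 2-fold, for 28 of 33 members, against 70.8% of all genes. The median difference was 0.02 over the members and 0.10 over all 13721 genes. These sizes depend on the scaling. With arrays centred on their medians, the medians were 0.69 over the members and 0.68 over all genes. Some members under 1 log2 unit here, such as Idi1 (1.53), then exceeded it. For 7 members the 95% interval of the difference lay wholly within 1 log2 unit of 0, against 12.3% of all genes; for the rest the data do not bound the difference that tightly. The reference value fell outside the range of the 3 ureters for 17 of 33 members, and for 70.6% of all genes. It lay above all ureters for 10 members (30.7% of all genes) and below all of them for 7 (39.9% of all genes). The plot of member differences by role shows Scd1 and Acacb farthest from 0, Acacb with the wider interval, while most intervals cross 0.

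**Figure D1:**
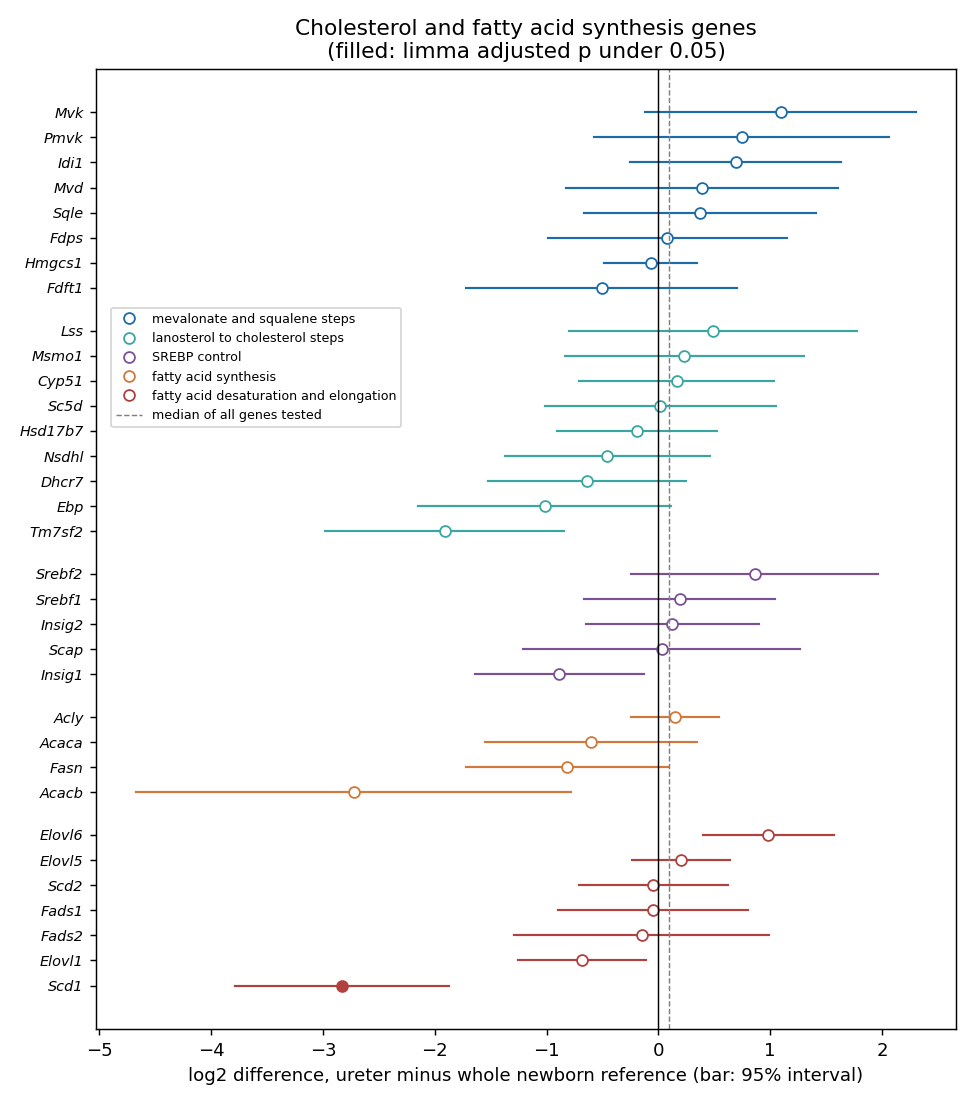
Log2 difference (ureter minus whole newborn reference, horizontal axis) of the 33 genes at their brightest tested probe set, by role, with 95% intervals as bars. The filled point, Scd1 at -2.83, is the gene that passed limma's adjusted p of 0.05, and the dashed line is the median of all genes tested, 0.10.

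Promoter windows of the members were read to show the sequences that SREBP and its partner NF-Y are known to use. Windows ran from 250 bases before to 50 bases after the annotated start, from RefSeq on GRCm38.p6, and were found for 27 of the 33 genes (36 windows). Fdps, Fdft1, Sqle, Scd1, Scd2 and Fads1 had no window, so the shares below do not cover Scd1, the member gene that was called. The sterol regulatory element was searched as TCACNCCAC and the NF-Y box as CCAAT, each on both strands, counting overlapping matches. The NF-Y letters occurred in a window of 23 of the 27 genes (85.2%), against 41.1% of the 27025 genes in the table. The sterol element's letters occurred in 1 of 27 genes, Hmgcs1, against 1.44% of all genes. The GC box GGGCGG, a site of Sp1, occurred in 21 of 27 genes (77.8%), against 38.2% of all genes, and the E-box CACGTG in 6 of 27 (22.2%), against 8.09%. The table mixes gene classes of different base composition and some genes have several windows, so these shares are descriptions. A match is not a site, and no match says only that these letters are not in this window.

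Shown here are Hmgcs1, whose window alone held the sterol element (first base at -137, counted with the start as 0) with 4 NF-Y matches, Fasn with 3 NF-Y matches, of which a pair overlap, and Elovl6, the member with a probe set called higher, which held neither motif. Capitals mark the matches to both motifs, and each is written 5′ to 3′ along the gene's strand. The windows are chr13:119690101-119690400 (plus strand), chr11:120824498-120824797 (minus strand) and chr3:129532136-129532435 (plus strand).
Hmgcs1: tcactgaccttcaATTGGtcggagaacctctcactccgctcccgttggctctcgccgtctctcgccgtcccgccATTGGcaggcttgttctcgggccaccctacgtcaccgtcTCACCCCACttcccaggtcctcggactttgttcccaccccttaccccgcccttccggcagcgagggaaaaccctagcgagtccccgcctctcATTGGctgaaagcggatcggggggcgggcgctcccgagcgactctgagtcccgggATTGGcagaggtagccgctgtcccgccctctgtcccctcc
Fasn: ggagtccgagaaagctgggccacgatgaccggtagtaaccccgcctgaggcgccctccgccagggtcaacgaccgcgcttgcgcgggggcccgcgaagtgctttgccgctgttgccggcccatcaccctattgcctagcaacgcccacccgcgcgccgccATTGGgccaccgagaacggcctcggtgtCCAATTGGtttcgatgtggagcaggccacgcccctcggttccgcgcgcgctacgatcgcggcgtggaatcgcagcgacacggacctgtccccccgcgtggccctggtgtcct
Elovl6: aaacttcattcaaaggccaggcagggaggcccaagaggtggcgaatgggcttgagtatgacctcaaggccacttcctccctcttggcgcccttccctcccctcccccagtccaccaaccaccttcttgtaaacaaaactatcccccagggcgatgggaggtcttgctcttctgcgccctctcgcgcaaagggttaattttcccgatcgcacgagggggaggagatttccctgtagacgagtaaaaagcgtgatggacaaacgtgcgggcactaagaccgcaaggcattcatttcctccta

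No gene of the mevalonate and squalene steps passed the test. Of 8 genes, 6 had a positive difference and 2 a negative one, 0 passed limma's test (0 also at an unadjusted p under 0.05), and the median was 0.38. Hmgcs1, which makes HMG-CoA and carries the sterol element shown above, had intensities of 53688, 50239.8 and 43228 in the ureters, against 51285 in the reference. The reference lay inside the ureters' range, the difference was -0.07 ± 0.17 (adjusted p = 0.850), and its 95% interval was -0.49 to 0.35. Its 3 dimmer tested probe sets gave -0.14, -0.15 and -0.25, none of them called.

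Mvk, mevalonate kinase, had 644, 399 and 491 in the ureters and 229 in the reference. All 3 ureters lay above the reference, but the difference of 1.09 ± 0.50 did not pass (adjusted p = 0.249). Pmvk, the next kinase, had 2387, 1046 and 1354 in the ureters and 890.4 in the reference. Its difference was 0.75 ± 0.54, and Mvd, which makes isopentenyl diphosphate, had one of 0.39 ± 0.50. Idi1, the isomerase of that unit, had 14417, 7731 and 12342 in the ureters and 6882 in the reference, a difference of 0.69 ± 0.39, and 0.55 ± 0.30 at its other tested probe set. The reference thus lay below every ureter for Mvk, Pmvk and Idi1, 3 of 8 genes (37.5%), near the 39.9% of all genes tested. No call was made.

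Fdps, farnesyl diphosphate synthase, stood at 0.08 ± 0.44, and Sqle, squalene epoxidase, at 0.37 ± 0.42. Fdft1, squalene synthase, was the lowest of this stretch, with 8047, 3358 and 5430.1 in the ureters against 7502 in the reference (-0.51 ± 0.50, adjusted p = 0.593). For these 3 genes the reference lay inside the range of the ureters.

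From lanosterol onward there were 4 positive and 5 negative differences among 9 genes, with a median of -0.19. None passed limma's test, and at an unadjusted p under 0.05 1 was lower. That was Tm7sf2, a sterol reductase, with 587, 486 and 742 in the ureters and 2276 in the reference, so that all 3 ureters lay far below it. The difference was -1.91 ± 0.44 (3.76-fold lower) with an adjusted p of 0.0604. Tm7sf2 passed only when the 60% dimmest probe sets were left out (adjusted p = 0.0473) and in the fit on probe sets averaged by gene (0.0261). It did not pass under any other alternative, and its difference shrank to -1.31 with arrays centred on their medians.

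Ebp, the sterol isomerase, had 4632, 2225 and 3103 in the ureters and 6438 in the reference, a difference of -1.02 ± 0.46 (adjusted p = 0.249). Dhcr7, the reductase of a last step to cholesterol, had 1965, 1626 and 1650.3 in the ureters and 2719 in the reference (-0.64 ± 0.36). Nsdhl, a sterol dehydrogenase, had 2647, 1869 and 2448 in the ureters and 3155 in the reference (-0.46 ± 0.38). With Tm7sf2, these made the 4 of 9 genes of this stretch (44.4%) in which the reference lay above every ureter. Among all genes tested that share was 30.7%.

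Sc5d, a sterol desaturase, was nearest to 0, with 2983, 2377 and 1746 in the ureters and 2284 in the reference (0.02 ± 0.42). A dimmer probe set of Sc5d gave 1.19 ± 0.54, not called (adjusted p = 0.245). Lss, lanosterol synthase, had 3092, 1354 and 1884 in the ureters and 1416 in the reference at its brightest probe set (0.49 ± 0.53). At its second it had 1500.2, 1783.1 and 1426 in the ureters and 1790.0 in the reference (-0.19 ± 0.38). The direction of Lss is therefore not settled. Msmo1, a methylsterol oxidase, stood at 0.23 ± 0.44 and Hsd17b7, a ketosteroid reductase, at -0.19 ± 0.29.

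Cyp51, the lanosterol demethylase, differed by 0.16 ± 0.36 and 0.46 ± 0.49 at its brighter probe sets. The third had 601, 199 and 678 in the ureters and 15.6 in the reference. There the reference lay below the highest of the bacterial control probe sets, which puts the ratio of ureters to reference at least at 3.22-fold. The probe set was removed by the filter on dim values and had an adjusted p of 0.0875 when no filter was used. It was the only one of the 15 untested member probe sets above background in all 3 ureters.

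The SREBP control genes also showed 0 calls by limma among 5, with 1 lower at an unadjusted p under 0.05, and a median of 0.12. Srebf1, which encodes SREBP-1 of fatty acid synthesis, had 5079, 3591 and 5017 in the ureters and 3944 in the reference (0.19 ± 0.35, adjusted p = 0.793). Srebf2, which encodes SREBP-2 of sterol synthesis, had 1489.6, 933 and 977 in the ureters and 604 in the reference (0.86 ± 0.46, adjusted p = 0.314). All ureters lay above the reference at that probe set. At the second probe set of Srebf2 they did not, with 477, 411 and 305 in the ureters and 393 in the reference (-0.01 ± 0.50).

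Scap, the escort protein gene, had 2707, 1245 and 1869 in the ureters and 1808 in the reference (0.03 ± 0.51). Insig1, a retention protein gene that is itself a textbook SREBP target, had 6348, 7068 and 5001 in the ureters and 11226 in the reference. Every ureter lay below the reference; the difference was -0.88 ± 0.31 with a 95% interval of -1.64 to -0.13, and it did not pass (adjusted p = 0.155). Insig2, the second retention protein gene, had 8558, 6579.6 and 5967 in the ureters and 6385 in the reference (0.12 ± 0.32). The third probe set of Insig2 had 1045, 2247 and 1131 in the ureters and 3263 in the reference (-1.23 ± 0.53, adjusted p = 0.229), so its probe sets differ in sign with none called.

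Among acetyl-CoA supply, the carboxylases and fatty acid synthase, 4 genes in all, 1 difference was positive and 3 were negative, with a median of -0.71 and 0 calls by limma (1 lower at an unadjusted p under 0.05). Acly, which makes cytosolic acetyl-CoA from citrate, had 32729, 36097 and 34459.9 in the ureters and 30995 in the reference, a difference of 0.15 ± 0.16. The third probe set of Acly had 856, 1055 and 677 in the ureters and 239.7 in the reference, and its difference of 1.77 ± 0.46 did not pass (adjusted p = 0.0802). All tested probe sets of Acly had every ureter above the reference.

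Fasn, fatty acid synthase, had 2813, 2068 and 2951 in the ureters and 4564 in the reference (-0.82 ± 0.37, adjusted p = 0.246). Acaca, the acetyl-CoA carboxylase of fatty acid synthesis, had 2614, 1728 and 2187 in the ureters and 3264 in the reference (-0.60 ± 0.39, adjusted p = 0.408). Acacb, the carboxylase known for restraining fatty acid oxidation in muscle and liver, had 109.6, 59.6 and 218 in the ureters and 824 in the reference. It was the only member not above background on all 4 arrays, since ureter 2 lay below it, and its difference of -2.73 ± 0.80 did not pass (adjusted p = 0.107). In Fasn, Acaca and Acacb alike the reference lay above all 3 ureters, as it did for 30.7% of all genes tested.

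Scd1, a stearoyl-CoA desaturase that makes monounsaturated fatty acids and is abundant in liver, fat and sebaceous glands, was the member gene that passed. It had 1725, 1678 and 1174 in the ureters and 10767 in the reference. Every ureter lay far below the reference, and the difference was -2.83 ± 0.39, or 7.11-fold lower (limma adjusted p = 0.0177). A second probe set had 108, 146 and 494 in the ureters and 1696 in the reference, with a difference of -3.00 ± 0.86 that did not pass (adjusted p = 0.101). Scd1 lost its call without ureter replicate 3 (-2.64, adjusted p = 0.0763) and with arrays centred on their medians (-2.04, adjusted p = 0.108).

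Scd2, the desaturase isoform that is prominent in developing tissues and brain, had 35346, 22404 and 29800.0 in the ureters and 29626 in the reference. The reference lay inside the ureters' range, with a difference of -0.05 ± 0.27, a 95% interval of -0.71 to 0.62 and an adjusted p of 0.940. The dimmer probe sets of Scd2 gave -0.11 and -0.28, neither called. The interval of Scd2 and that of Scd1 (-3.78 to -1.88) do not meet, but the difference between the isoforms was not tested.

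Elovl6, which lengthens palmitate to stearate ahead of the desaturases, gave the highest difference of the 7 desaturation and elongation genes. Its brightest probe set had 13946, 12516 and 14928 in the ureters and 6952 in the reference, so all ureters lay above the reference (0.98 ± 0.24, adjusted p = 0.0698). The second had 1249, 1518 and 1400.3 in the ureters and 207 in the reference. It was called higher, by 2.67 ± 0.40 or 6.37-fold (limma adjusted p = 0.0213), and lost its call without ureter replicate 3 (adjusted p = 0.107). The third probe set ran the other way, with 12.2, 55.5 and 113 in the ureters and 437 in the reference; the ureters were all at background there, so the reference stood at least 3.08-fold above them, without a call (adjusted p = 0.186). That second probe set and the brightest of Scd1 were the 2 called among 62 member probe sets, where 6.17% of all probe sets passed, 2.68% as higher and 3.49% as lower. The plot of probe sets array by array shows how the probe sets of these genes compare.

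**Figure D2:**
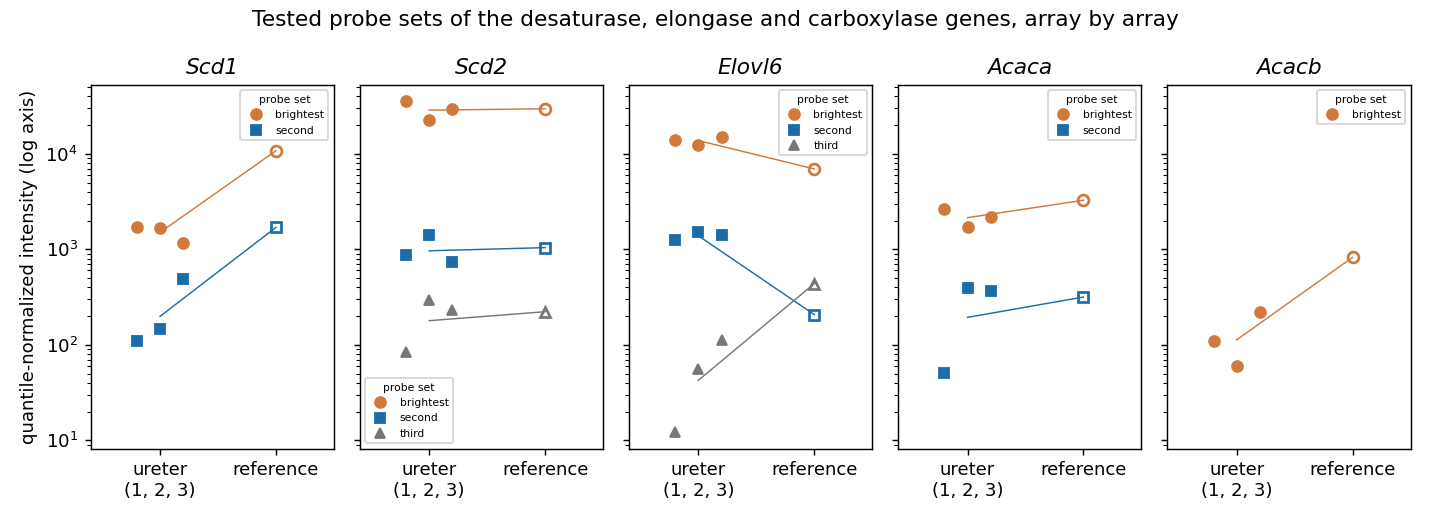
Quantile-normalized intensity (log axis) of each tested probe set of Scd1, Scd2, Elovl6, Acaca and Acacb in the 3 ureter arrays (filled, in the order 1, 2, 3) and the reference array (open), with lines from the geometric mean of the ureters. Scd1 lay below the reference at both of its probe sets, Scd2 lay around it, and the third probe set of Elovl6 ran against the brighter ones.

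None of the other elongases and desaturases passed. Elovl5, an elongase of polyunsaturated fatty acids, had 43729, 42211 and 35664 in the ureters and 35033 in the reference (0.20 ± 0.18). Elovl1, an elongase of very long chains, had 9558, 9741 and 8935 in the ureters and 15135 in the reference (-0.69 ± 0.24, adjusted p = 0.148). The ureters lay below the reference at 3 of the 4 probe sets of Elovl1, while the dimmest had 277, 271 and 364 in the ureters and 187 in the reference (0.65 ± 0.53).

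Fads1, a desaturase of polyunsaturated fatty acids, had 11532, 6825 and 9065 in the ureters and 9239 in the reference (-0.05 ± 0.35). Fads2, which acts before it, had 3283, 1810.1 and 1829.5 in the ureters and 2456 in the reference (-0.15 ± 0.47), and its dimmer probe sets gave -0.65 and 0.56. In all, 6 of the 19 members with several tested probe sets had differences of opposite sign between them (Lss, Srebf2, Insig2, Elovl1, Elovl6 and Fads2), and none had calls in opposite directions.

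The ureters differed among themselves in these genes. Ureter 1 was the highest of the 3 arrays for 14 of the 17 sterol synthesis genes, against 40.004% of all genes tested, and ureter 2 was the lowest for 15 of 17, against 45.2%. The median difference of the sterol genes from the reference was 0.38 in ureter 1, -0.19 in ureter 2 and 0.09 in ureter 3, where all genes had medians of 0.14, 0.04 and 0.14. The 11 fatty acid genes had medians of 0.08, -0.44 and -0.42. Summed intensities of the 9 urothelial markers were 185945 in ureter 1, 111368 in ureter 2 and 127716 in ureter 3, so this sum, too, was highest in ureter 1 and lowest in ureter 2. The sum of the epidermal and sebaceous markers had the same order (8604, 4899 and 8342). Krt5 (4703, 2612 and 4123) and Krt14 (2815, 644 and 1707) made up most of it and had that order, as did Krt79. Krt10 (615, 1307 and 2062), Lor and Krt1 did not. The same order held for the sum of 22 further genes of fatty acid supply, elongation and esterification (147486, 99423 and 108131). Smooth muscle and mesenchymal markers (224646, 223078 and 240256) and liver markers (3670, 2821 and 3699) were highest in ureter 3. Fat markers (63240, 74408 and 84857) and 12 further sterol genes (94103, 103948 and 97068) were lowest in ureter 1. Myelin and brain markers (7236, 6582 and 5894) were lowest in ureter 3. The part of these in the pattern was not tested. The heat map of members by ureter shows these shifts.

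**Figure D3:**
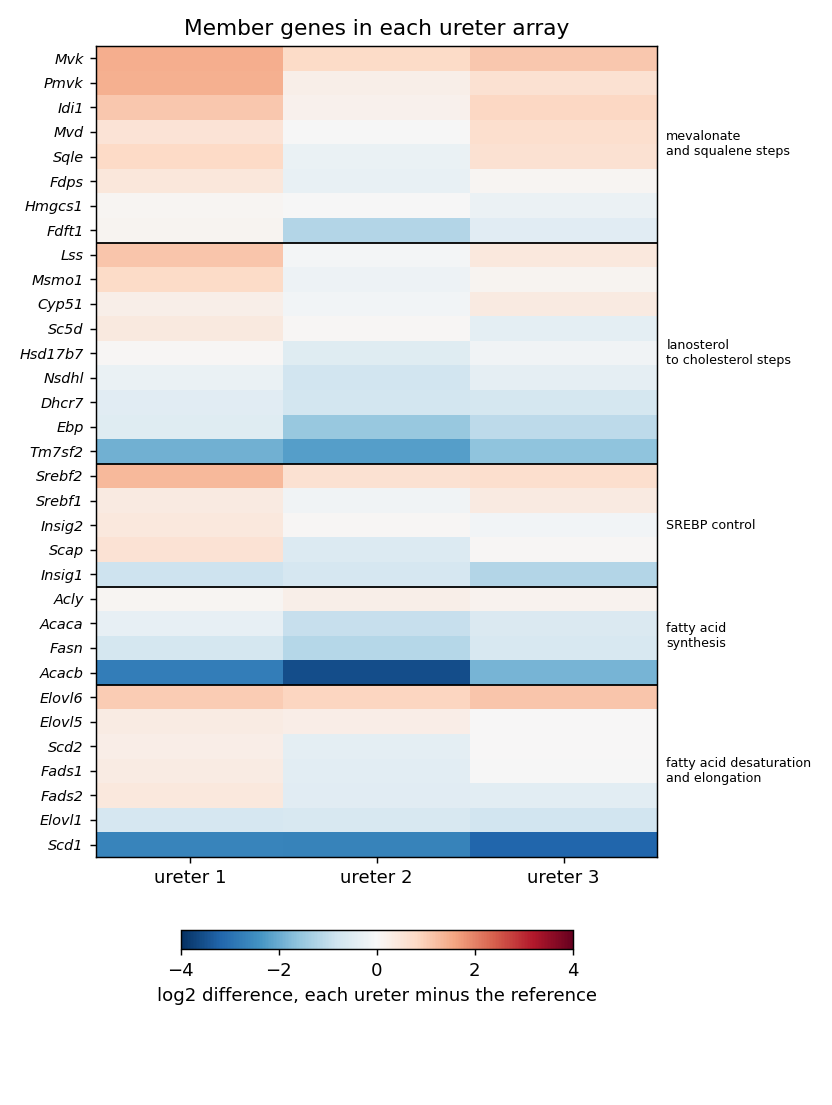
Log2 difference of each ureter array from the reference (colour) for the 33 genes at their brightest tested probe set, ordered by role and difference. Sterol synthesis genes were mostly highest in ureter 1 and lowest in ureter 2. Scd1, Acacb and Tm7sf2 were among the 10 of 33 genes below the reference in all 3 ureters (30.7% of all genes tested).

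Genes around the pathway were read from lists of sterol handling and of fatty acid supply and esterification. Of 12 sterol genes measured, 0 passed limma's test and 0 did at an unadjusted p under 0.05; the median was 0.10, level with that of all genes. Stard4, a sterol carrier gene, had 3175, 3034 and 2706 in the ureters and 4336 in the reference (-0.55 ± 0.33). Its difference was -0.22 with its tested probe sets averaged. Nr1h3, which encodes the sterol-sensing receptor LXR alpha, had 115, 174 and 251 in the ureters and 173 in the reference (-0.01 ± 0.69).

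The fatty acid list lay lower, with a median of -0.86 over 22 genes, 0 called higher and 5 lower, against 4.77% of all genes called lower. At an unadjusted p under 0.05, 1 of 22 was higher and 9 were lower, against 1895 higher and 1713 lower of all 13721 genes. Thrsp, a lipogenesis regulator of liver and fat, had 183, 176 and 266 in the ureters and 3651 in the reference (-4.08 ± 0.49, adjusted p = 0.0137). Agpat2, an acyltransferase on the way to triglyceride, had 555, 354 and 592 in the ureters and 2944 in the reference (-2.56 ± 0.47, adjusted p = 0.0345). Dgat1, which completes triglyceride, had 1163, 987 and 953 in the ureters and 4250.4 in the reference (-2.03 ± 0.38, adjusted p = 0.0350). For each of these 3 genes every ureter lay below the reference at the brightest probe set. With its tested probe sets averaged, Thrsp differed by only -2.04, so its probe sets do not agree on the size of the difference. At the brightest probe set of Thrsp, ureter 2 lay below background.

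Acsl5, an acyl-CoA synthetase gene (-1.53 ± 0.26, adjusted p = 0.0287), and Elovl7, an elongase gene (-1.99 ± 0.40, adjusted p = 0.0448), were also called lower, and are named because they complete the count. Without ureter replicate 3 only Thrsp kept its call (0.0480), with 0.115 for Acsl5, 0.114 for Agpat2, 0.157 for Dgat1 and 0.183 for Elovl7. Elovl7 also lost its call without ureter replicate 1 (0.0672), as deposited (0.0607), with probe sets averaged (0.121) and without _x_at and _s_at probe sets, where another probe set is read (0.155). With no filter on dim probe sets Acsl5 (0.0551), Agpat2 (0.0611) and Elovl7 (0.0656) did not pass. With no intensity trend the adjusted p was 0.0249 for Thrsp, 0.116 for Acsl5, 0.0625 for Agpat2, 0.0616 for Dgat1 and 0.0705 for Elovl7. With arrays centred on their medians Thrsp passed (0.00717), whereas Acsl5 (0.303), Agpat2 (0.109), Dgat1 (0.260) and Elovl7 (0.228) did not.

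The highest difference of that list belonged to Me1, the malic enzyme that supplies NADPH for fatty acid synthesis, with 10914, 5027 and 7159 in the ureters and 2028 in the reference. All ureters lay above the reference, and the difference of 1.85 ± 0.46 did not pass (adjusted p = 0.0744), except when ureter replicate 2 was left out (0.0353). With its tested probe sets averaged, Me1 differed by 1.04. Acss2, which makes acetyl-CoA from acetate, had 5095, 4026 and 5533 in the ureters and 6707 in the reference (-0.47 ± 0.32). The plot of other pathway genes sets the sterol list, without a call, beside the fatty acid list.

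**Figure D4:**
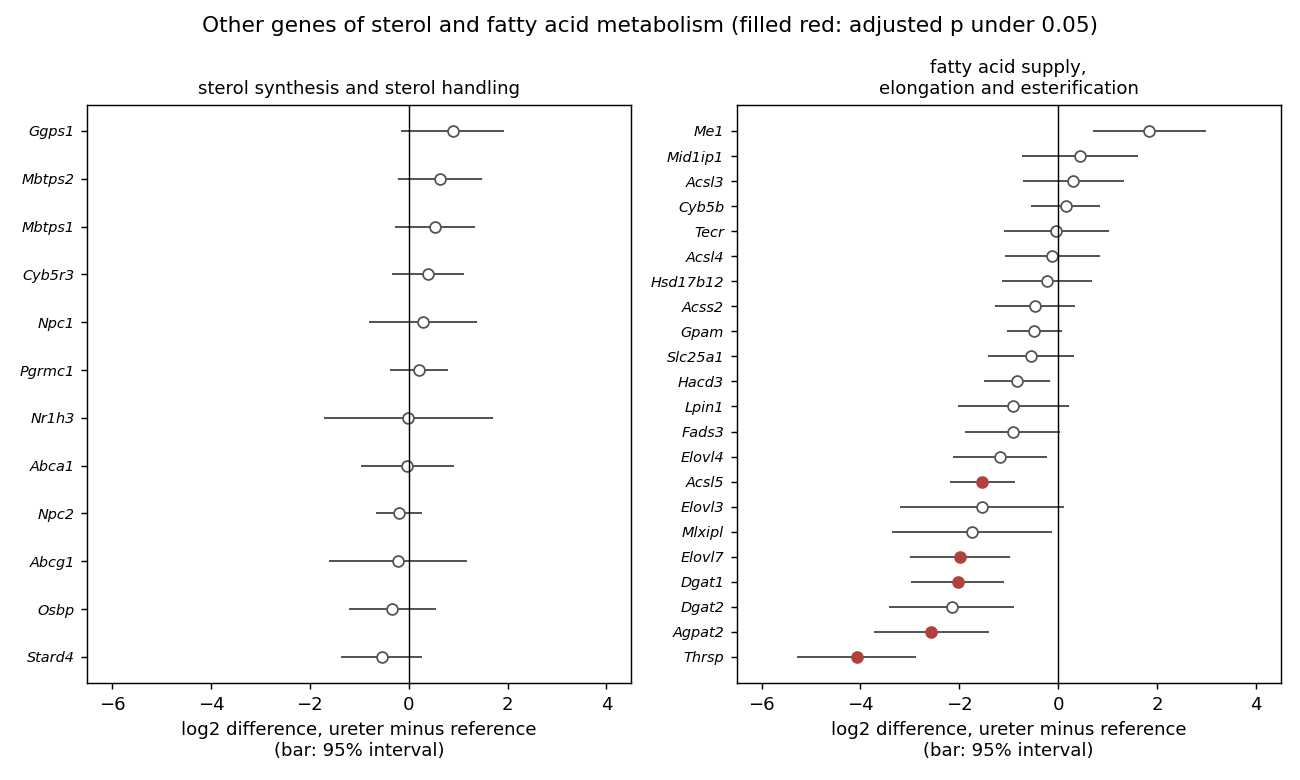
Log2 difference (ureter minus reference, horizontal axis) with 95% intervals of 12 further sterol genes (left) and 22 further genes of fatty acid supply, elongation and esterification (right). Filled red points passed limma's adjusted p of 0.05: 0 in the sterol list, and Acsl5, Elovl7, Dgat1, Agpat2 and Thrsp, all lower, in the fatty acid list.

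Markers of lipid-making organs were read beside Scd1 and Thrsp, which were called lower. All 9 liver markers measured were called lower in the ureters, with summed intensities of 2821 to 3699 in the ureters and 362342 in the reference, and 6 of them (Ahsg, Apoa1, Apob, Fgb, Fabp1 and Tat) were at background in every ureter. Of 7 fat markers 3 were lower (Ucp1, Cidea and Adipoq) and 4 did not pass, and Ucp1 and Adipoq were at background in every ureter. The sums were 63240.2 to 84857 in the ureters and 178430.0 in the reference. Most of each sum came from Fabp4 (17339.5, 27170 and 35566 in the ureters, 43603 in the reference) and Lpl. Lpl had 44378, 46131 and 48139 in the ureters and 67538 in the reference. Neither gene passed, so the sums say little about the fat markers that were called. Of 6 epidermal and sebaceous markers 5 were lower, with sums of 4899 to 8604 in the ureters and 174348 in the reference, and Krt1 was at background in every ureter. Of 7 myelin and brain markers 2 were lower and 5 did not pass, with sums of 5894 to 7236 in the ureters and 21075 in the reference, and Gfap was at background in every ureter. The part of these organs in the differences of Scd1, Tm7sf2, Acacb, Thrsp, Agpat2 and Dgat1 was not tested.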

How the data were processed

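The authors deposited 1 intensity per probe set and array, on a linear scale, for 3 ureter samples and 1 whole-newborn reference. The submitters' processing notes name GCOS. Each array's mean after trimming 2% at each end was 1500.01, so the deposited intensities were scaled to a common trimmed mean; how GCOS treated background is not stated in these sources. Deposited medians ran from 154 to 332, so arrays were quantile normalized, and log2 was taken after adding 12.23 (the 10th percentile of all values), so changes of dim probe sets are understated. The arrays hold 45101 probe sets, of which 64 controls were left out first and the dimmest 40% next. Groups were compared with limma 3.58.1 in R 4.3.3 (lmFit, eBayes with intensity trend, two-sided, with 2 residual degrees of freedom that only the ureters supply; the reference is assumed to vary like them). The fit was also run on simulated data in which the reference varied like the ureters, so that run cannot check this assumption. Background is the highest of 27 bacterial probe sets on each array; a fold is "at least" when all arrays of the lower group fail to exceed it. The number of arrays limits the precision. Names come from the platform annotation, and the gene identifiers of all 33 members matched RefSeq with unchanged symbols. Members, lists and alternatives were chosen with earlier results of these data known. Named genes follow a rule: every member, with values array by array for calls, SREBP control, probe sets of opposite sign and each role's extremes; of the other pathway genes, the 3 with the largest called change per list and direction, and Acss2, Me1, Stard4 and Nr1h3. Further genes are named because they complete a count or show the values around a call, and were chosen after their values were seen. Listed genes without a measured value do not enter the counts, and under an alternative a gene keeps its probe set unless probe sets are what changes.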

Additional observations from a re-analysis of the deposited data

How the results depend on the processing

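Alternatives were the scaling, the offset (1 or 100), the filter on dim probe sets, no intensity trend, each ureter left out, averaged probe sets and, chosen after seeing the data, leaving out probe sets that can match several transcripts (_x_at or _s_at). The number of member genes called was 1; it was 0 with median-centred arrays, 2 with the 60% dimmest left out and 2 with averaged probe sets (Scd1 and Tm7sf2 in each), and 0 to 1 with a ureter left out. Scd1 was called under the others. Member probe sets called were 2, but 1 with median-centred arrays, 3 with the 60% dimmest left out, and 0 to 2 with a ureter left out. Calls over all probe sets were 1667, but 1075 with no filter, 904 with no trend, 2313 with an offset of 100, and 317 to 2135 with a ureter left out. Centring on medians moved the median of all genes to 0.68 (0.10 in the reported setting); the medians became 0.69 for all members, 0.69 for sterol genes and 0.58 for fatty acid genes, so relative to all genes they were 0.01, 0.01 and -0.10. With a ureter left out, the member median ranged from -0.16 to 0.13. Uncalled members changed sign as follows; for those that did so without a ureter, the range over the 3 ureters left out in turn is given. With median-centred arrays the values were Hmgcs1 0.42, Fdft1 0.34, Nsdhl 0.33, Hsd17b7 0.66, Dhcr7 0.10, Acaca 0.18, Fasn 0.00036, Scd2 0.58, Elovl1 0.15, Fads1 0.80 and Fads2 0.60. As deposited they were Mvd -0.15, Fdps -0.037, Scap -0.014 and Fads1 0.075. Without ureter replicate 1 the sign changed for Fdps (-0.097 to 0.27), Msmo1 (-0.036 to 0.44), Sc5d (-0.16 to 0.22), Scap (-0.23 to 0.32) and Insig2 (-0.026 to 0.23), without replicate 2 for Scd2 (-0.21 to 0.13) and Fads1 (-0.23 to 0.15), and without replicate 3 for Hmgcs1 (-0.14 to 0.016). The cause was not tested. Averaged probe sets gave Insig2 -0.29, and leaving out _x_at and _s_at gave Lss -0.19, because its second probe set is then read. No paired analysis was possible because the reference has 1 sample. With 4 arrays, the 95% interval reached beyond 1 log2 unit for all but 7 of 33 members, so a difference that was not called is not shown to be absent. Acacb, Thrsp, Nr1h3 and the second probe set of Scd1, each with ureter 2 below background, are limited by signal over background. So are the dimmest probe sets of Acaca, Scd2, Elovl6 and Cyp51.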
